A study of Bos taurus with 6 samples.

Results

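The genes described here are 10 adipokines and adipokine receptors, taken by name from the 22839 different gene symbols counted in longissimus thoracis (LT) muscle of Korean cattle. They are the adipokines adiponectin (ADIPOQ), leptin (LEP), retinol binding protein 4 (RBP4) and adipsin (complement factor D, CFD), the C1q and TNF related proteins C1QTNF5 and C1QTNF1, and the receptors ADIPOR1, ADIPOR2, CDH13 and LEPR. All 10 were found in the count files, each as a single row. The high group held 3 Hanwoo steers with a high number of fine marbling particles (NFMP), steers 3-8, 10-8 and 10-9, which were 32.5, 33.8 and 34.5 months old. The low group held 3 Hanwoo steers with a low NFMP, steers 3-1, 3-3 and 10-16, which were 37.8, 33.7 and 35.4 months old. All steers were fed commercial feed in the conventional way, the labels name no treatment, and 1 library of 3′ mRNA reads was made per steer. The NFMP counts small flecks of fat on a photograph of the rib eye, and the labels give each steer's group by it.

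Adipocytes secrete hormones, the adipokines, that report on fat stores to muscle, liver and brain. Adiponectin acts through ADIPOR1 and ADIPOR2, which raise fatty acid oxidation, in part by way of AMP-activated protein kinase. It is held on vessel walls and muscle by CDH13 (T-cadherin), a cadherin without a cytoplasmic tail. Leptin, secreted in proportion to fat mass, acts through the cytokine receptor LEPR and the kinase JAK2, which activates the transcription factor STAT3, while SOCS3 and the phosphatase PTPN1 limit that signal. The C1QTNF genes encode relatives of adiponectin with a collagen stretch and a globular C1q domain. The question behind the comparison was which genes differ in muscle between steers with many and with few fine marbling particles.

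The libraries held between 16283873 and 17192750 counts. The 10 skeletal muscle markers, titin and skeletal actin among them, together held between 101800 and 127300 counts per 1000000 of the library size after TMM scaling (CPM). In these libraries of muscle tissue, fewer cells of a type and less RNA per cell cannot be told apart. The library of steer 10-9 stood apart in 1 respect, with 39.3 CPM over the 9 hepatocyte markers against at most 5.11 CPM in the other 5 libraries.

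The level of each gene was compared on the CPM scale, which in a 3′ method is not divided by transcript length because a transcript gives reads near its end only. CDH13 was the most abundant, with a mean of 322 CPM over the 6 libraries (range 271 to 390), followed by ADIPOR2 with 137 CPM (112 to 180). ADIPOQ followed with 58.5 CPM (39.4 to 95.7) and ADIPOR1 with 48.1 CPM (36.4 to 59.3). These 2 neighbours did not differ beyond their spread, since ADIPOQ lay above ADIPOR1 in 4 of 6 libraries. RBP4 had 14.4 CPM (9.38 to 22.7). C1QTNF5 with 6.44 CPM, C1QTNF1 with 6.06 CPM and LEP with 5.02 CPM overlapped with each other in range. CFD had 2.91 CPM (1.71 to 4.72) and LEPR was the rarest, with 1.01 CPM (0.165 to 1.73). The 2 adiponectin receptors were thus counted far more often in this muscle than the leptin receptor. LEP, LEPR, CFD, C1QTNF5 and C1QTNF1, 5 of the 10 genes, had fewer than 100 counts in at least 1 library.

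**Figure D1:**
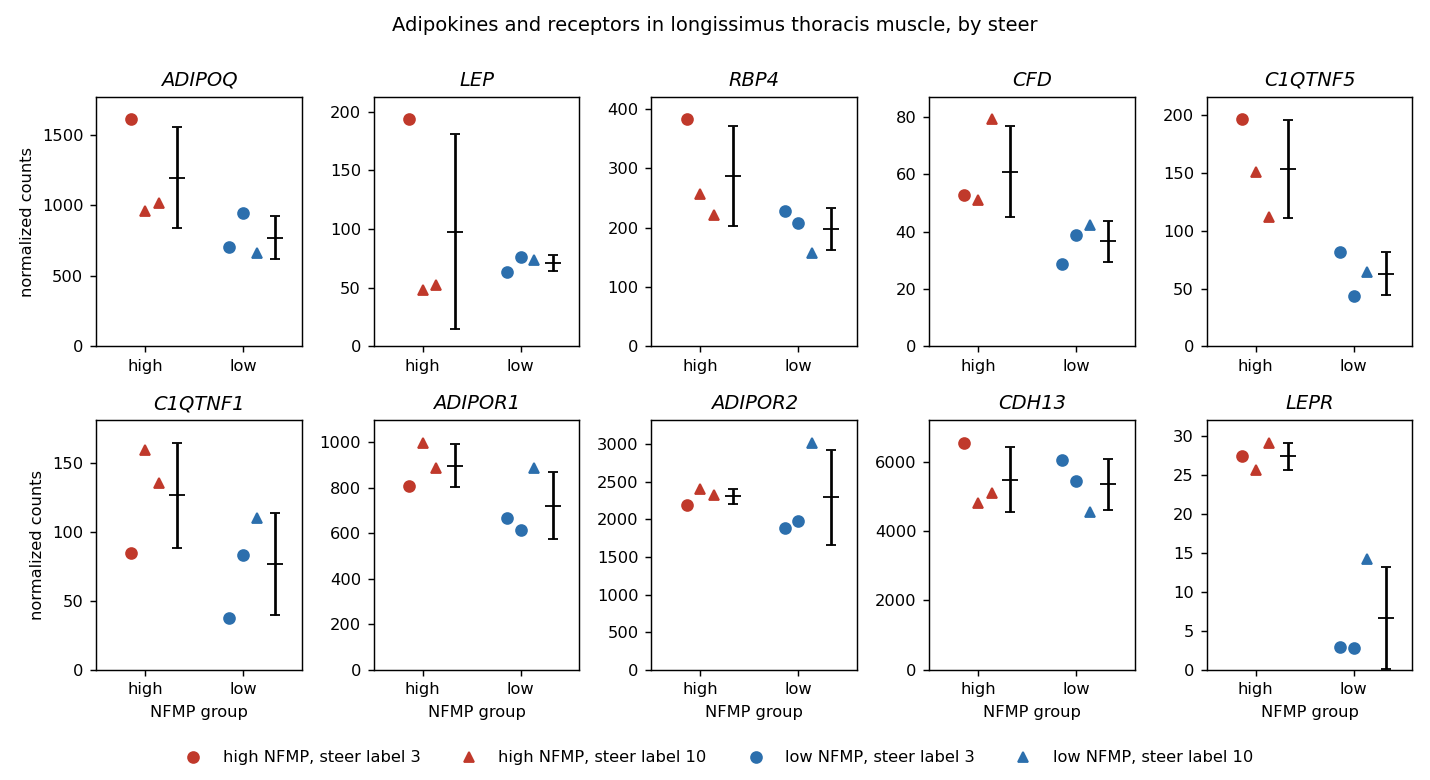
Normalized counts (counts after scaling every library to the mean effective size, vertical axes from 0) of the 10 genes in each of the 3 high-NFMP (red) and 3 low-NFMP (blue) steers, with circles for steers labelled 3 and triangles for steers labelled 10, and with the mean and SD of each group (n = 3) in black. With this scaling the groups do not overlap for ADIPOQ, CFD, C1QTNF5 and LEPR, and steer 3-8 stands far above the other 5 steers for LEP.

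LEPR and C1QTNF5 were higher in the high-NFMP group, the former about 4-fold and the latter about 2.4-fold, and no gene of the 10 passed the test as lower. In edgeR's quasi-likelihood test these 2 genes passed the threshold of the methods, which asks for a fold change above 2 and an unadjusted p below 0.05. Of all 15039 tested genes, 3.90% passed it, 2.53% as higher and 1.36% as lower with high NFMP. Without steer 3-8 these shares were 2.37% and 2.45% of 15417 tested genes. Both genes are named by the study, which chose them on these same libraries, so their direction is not independent evidence. The study also measured C1QTNF5, though not LEPR, by qPCR with further steers. There the difference of C1QTNF5 had the same direction but was much smaller and did not reach significance. In 4 of the 10 genes (LEPR, C1QTNF5, ADIPOQ and CFD) every high-NFMP steer lay above every low-NFMP steer after TMM scaling, which was so for 7.97% of all tested genes. None was separated in the other direction. When libraries were scaled by their totals only, ADIPOQ overlapped (52.3 CPM in steer 10-8 and 60.9 CPM in steer 3-3) and 3 of the 10 were separated, where 6.08% of all tested genes were as higher and 11.4% as lower. The fitted log2 fold change was above 0 for all 10 genes, where it was for 51.9% of all tested genes. Its median was 0.58 over the 10 and 0.02 over all tested genes. The values of ADIPOR2 and CDH13 lay so near 0 that their sign changed with the scaling by library totals. Without steer 3-8 those of CDH13 (-0.11) and LEP (-0.51) were below 0.
No gene of the 10 had a Benjamini-Hochberg adjusted p below 0.05 over all tested genes by edgeR with its default filter on low counts, a limit that 0.685% of all tested genes met. At an unadjusted p below 0.05 there were 4 of the 10, where 11.5% of all tested genes were. The adjusted p was below 0.05 for 1 of the 10, C1QTNF5, with DESeq2 (adjusted p = 0.0122), which called 1.91% of the tested genes at that limit, and with edgeR without a filter on low counts (adjusted p = 0.0196), which called 1.04% of 23015, and with limma after quantile normalization for 0. An exact permutation test of 3 against 3 steers cannot give a p below 0.1, so the edgeR p-values draw on a spread estimated over many genes.

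**Figure D2:**
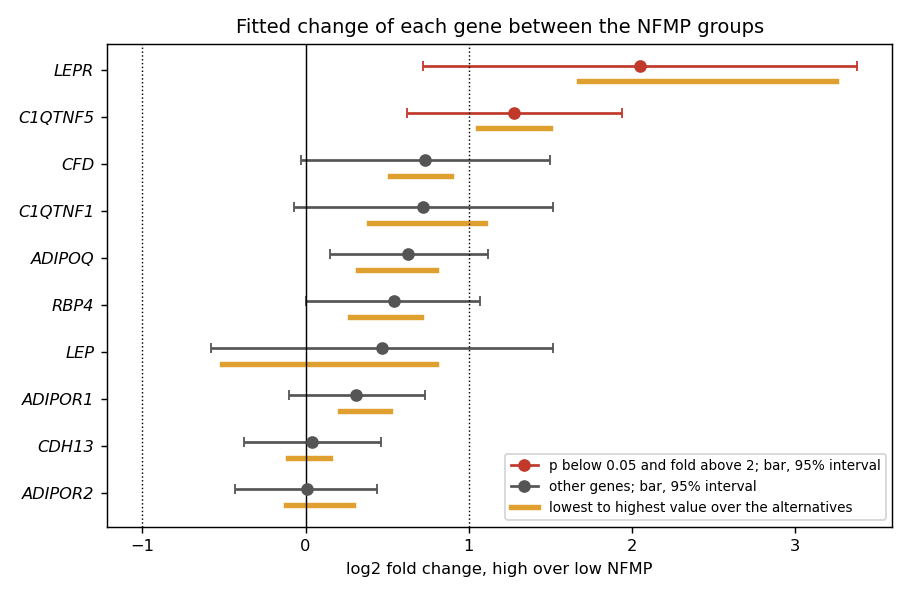
Fitted log2 fold change of high over low NFMP for each of the 10 genes (points) with its 95% interval (thin bars, edgeR, n = 3 against 3), and the lowest to highest value over the alternative settings (thick bars). Dotted lines mark a fold change of 2, and red marks the genes past the p and fold change threshold, LEPR at 2.05 and C1QTNF5 at 1.28.

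LEPR, the receptor through which leptin acts, was counted 27, 23 and 29 times among high-NFMP steers 3-8, 10-8 and 10-9, and 3, 3 and 14 times among low-NFMP steers 3-1, 3-3 and 10-16. The high-NFMP steers lay closer together (coefficient of variation 6.45%) than counting error alone would give on average (19.5%), so that their closeness is no measure of precision. Within the low-NFMP group steer 10-16 was well above the other 2. After normalization the means were 27.3 ± 1.76 (SD, n = 3) and 6.59 ± 6.53 (SD, n = 3) normalized counts. The log2 fold change was 2.05 (standard error 0.62, 95% interval 0.72 to 3.38, adjusted p = 0.198 by edgeR).
A count of 3 has an exact Poisson interval of 0.619 to 8.77, and one of 27 an interval of 17.8 to 39.3 (95%, counting error only). The intervals of steers 3-1 and 3-3 therefore lay below those of all high-NFMP steers, and that of steer 10-16, 7.65 to 23.5, overlapped with them. LEPR had 10 or more counts in 4 libraries, of which 3 were high-NFMP, so it passed the filter on low counts by way of the group in which it was high. The threshold was passed in all 14 alternative settings in which LEPR could be fitted, with log2 fold changes between 1.68 and 3.25, and the highest value was reached without steer 10-16. Both low-NFMP steers with 3 counts carry a label that begins with 3. Within the steers labelled 3 the high-NFMP steer exceeded the low-NFMP mean by 2.61 in log2 CPM, and within those labelled 10 the difference was 0.86.
LEPR was not fitted where 10 counts in every library were asked for.

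LEPROT, a membrane protein that in other mammals shares a promoter with LEPR and lowers its amount on the cell surface, had 150, 136 and 118 counts among high-NFMP steers and 139, 121 and 120 among low-NFMP steers. These ranges overlapped, and the log2 fold change was 0.20 (95% interval -0.31 to 0.72, adjusted p = 0.786 by edgeR). LEPR was thus counted 16.9 to 24.6 times per 100 LEPROT counts among high-NFMP steers and 2.16 to 11.7 times among low-NFMP steers. LEPROT does not overlap LEPR in the RefSeq table for ARS-UCD2.0.

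LEP, the leptin gene, was counted 191, 43 and 52 times among high-NFMP steers 3-8, 10-8 and 10-9, and 66, 82 and 73 times among low-NFMP steers. Steer 3-8 had by far the highest count and the other 2 high-NFMP steers had the lowest counts of all 6, so the groups overlapped. The means were 97.8 ± 82.9 and 70.9 ± 6.81 normalized counts (SD, n = 3 each), and the log2 fold change was 0.47 (95% interval -0.58 to 1.52, adjusted p = 0.748 by edgeR). Without steer 3-8 the log2 fold change was -0.51. The receptor and its ligand therefore gave different patterns over the steers, with LEPR high in all 3 high-NFMP steers and LEP high in 1 of them.

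ADIPOQ, the gene of the hormone made almost solely by adipocytes, was counted 1587, 865 and 1013 times among high-NFMP steers 3-8, 10-8 and 10-9 and 737, 1023 and 655 times among low-NFMP steers 3-1, 3-3 and 10-16. After normalization steer 3-8 had 1608 and the other high-NFMP steers 961.3 and 1016, whereas the low-NFMP steers had 705.2, 946.6 and 661.3. The groups were separated only narrowly, by 10-8 above 3-3, and overlapped with library totals alone. The means were 1195 ± 359 and 771 ± 154 normalized counts (SD, n = 3 each), a log2 fold change of 0.63 (standard error 0.23, 95% interval 0.15 to 1.12, adjusted p = 0.291 by edgeR). The unadjusted p by edgeR was 0.0141, and a fold change of 2 was not reached in any alternative setting. Without steer 3-8 the log2 fold change was 0.36 (unadjusted p = 0.101 by edgeR), and with age as a term it was 0.32 (unadjusted p = 0.269).
Adipocyte markers other than ADIPOQ were summed for the same libraries. The 19 of 20 listed adipocyte markers that were found, none of them among the 10 genes, summed to between 1139 and 1562 CPM among high-NFMP steers and to between 984.7 and 1082 CPM among low-NFMP steers. These sums did not overlap, but without GPD1, a glycerol-3-phosphate dehydrogenase gene that was the most abundant of the list at 371 CPM, they did. They then were 1303, 887.3 and 683 CPM for high-NFMP steers 3-8, 10-8 and 10-9 and 648.7, 698.1 and 701.9 CPM for low-NFMP steers 3-1, 3-3 and 10-16. In the other 18 of the 19 sums with a marker left out the groups stayed apart, but all of these sums held GPD1 and so do not count as separate evidence. All 19 were tested and none was at 0 in all libraries. Of the 19, 1 was past the p and fold change threshold as higher, where 2.53% of all tested genes were. This was the fatty acid synthase gene FASN, at 1061 ± 402 against 491.6 ± 160 normalized counts (SD, n = 3 each). Its log2 fold change of 1.11 fell under the limit without steer 3-8 (0.87), without steer 3-1 (0.93) and with age as a term (0.71), and the quantile procedure lost the call on its p. The number called in the list was 5 without steer 10-9, where 665 of 15472 tested genes were called. It was 3 with the label number as a term, 2 with DESeq2 and without steer 10-8, and 0 with age as a term and with the quantile procedure. An unadjusted p below 0.05 was found for 6 of the 19, all higher in the high-NFMP group, where 5.73% of all tested genes were. The median log2 fold change of the list was 0.46, and 3 of the 19 separated the groups, all as higher, where 7.97% of all tested genes did. The lipid droplet gene PLIN4 was next in abundance to GPD1, at 125 CPM. ADIPOQ was counted 41.9 to 61.3 times per 1000 counts of these markers among high-NFMP steers and 36.4 to 55.5 times among low-NFMP steers, and these ranges overlapped with GPD1 in the sum and without it. The part of the adipocyte content in the difference of ADIPOQ was not tested further.

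LEP did not keep a fixed proportion to ADIPOQ. LEP was counted 12 times per 100 ADIPOQ counts in steer 3-8, against 4.97 and 5.13 times in the other high-NFMP steers 10-8 and 10-9. The low-NFMP steers lay between these values, at 8.96, 8.02 and 11.1. RBP4 by contrast stayed between 21.7 and 32.3 per 100 ADIPOQ counts over the 6 steers. Of the other 9 genes, RBP4 was the nearest to ADIPOQ in its pattern, with a root mean square distance of 0.20 between their log2 CPM values centred on the mean over 6 libraries, and LEPR was the farthest, with a distance of 1.02. By the same distance ADIPOR1 and ADIPOR2 were nearest to each other (0.17), CDH13 and C1QTNF5 to RBP4 (0.27 and 0.48), LEP to ADIPOQ (0.48), CFD to ADIPOR1 (0.33), C1QTNF1 to CFD (0.42) and LEPR to C1QTNF5 (0.75). This distance also depends on how much each gene varies. CDH13 deviated from its own mean by a root mean square of 0.18, so it lay nearer to a constant level than to RBP4. LEPR deviated by 1.17, at low counts, which places it far from genes that vary little.

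**Figure D3:**
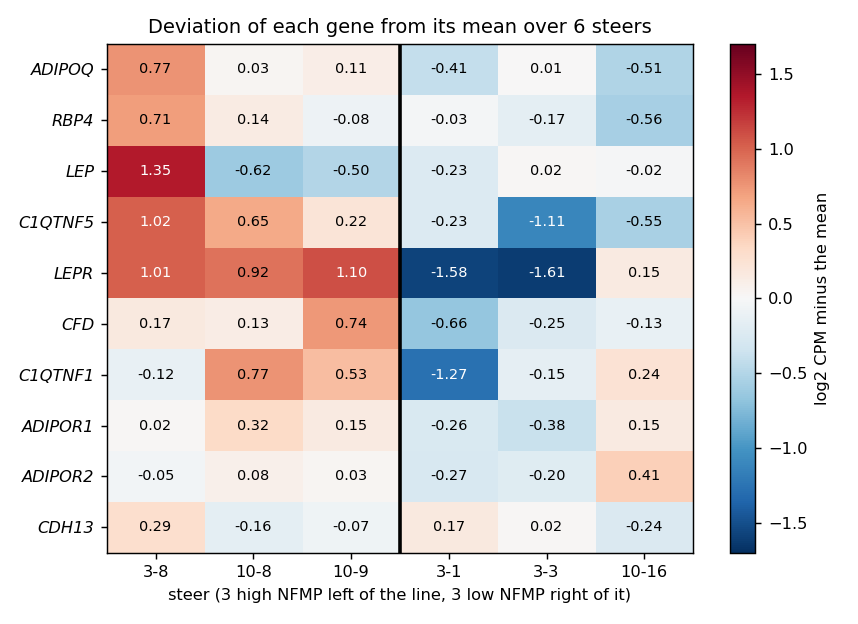
Log2 CPM of each gene minus its mean over the 6 steers (colour and printed values), with the high-NFMP steers left of the black line and the low-NFMP steers right of it. ADIPOQ and RBP4 are both highest in steer 3-8 and lowest in steer 10-16, and LEPR is lowest in steers 3-1 and 3-3.

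ADIPOR1, the adiponectin receptor best known from skeletal muscle, had 805.6, 996.8 and 886.6 normalized counts among high-NFMP steers 3-8, 10-8 and 10-9, and 665.0, 611.7 and 886.4 among low-NFMP steers 3-1, 3-3 and 10-16. Steer 10-16 overlapped with the high-NFMP group. The log2 fold change was 0.31 (standard error 0.20, 95% interval -0.10 to 0.73, adjusted p = 0.571 by edgeR). Over the alternatives it lay between 0.21 and 0.52. The highest value was reached without steer 10-16 (unadjusted p = 0.0315, adjusted p = 0.445 by edgeR). ADIPOR2, the receptor best known from liver, had 2194, 2398 and 2321 normalized counts among high-NFMP steers and 1887, 1977 and 3019 among low-NFMP steers. Its high-NFMP values lay within the range of the low-NFMP group, whose steer 10-16 had the highest value of all. The log2 fold change was 0.01 (95% interval -0.43 to 0.44, adjusted p = 0.994 by edgeR), so the interval holds no 2-fold change in either direction.
Within each library, ADIPOR2 was counted 272, 241 and 262 times per 100 ADIPOR1 counts among high-NFMP steers and 284, 323 and 341 times among low-NFMP steers. All 3 high-NFMP steers thus lay below all 3 low-NFMP steers, although the highest high-NFMP and the lowest low-NFMP value were close. This ratio does not depend on the scaling between libraries. It was 1 of 9 ratios that were computed after the values had been seen, of which the ratio of LEPR to LEPROT was the only other one without overlap.

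**Figure D4:**
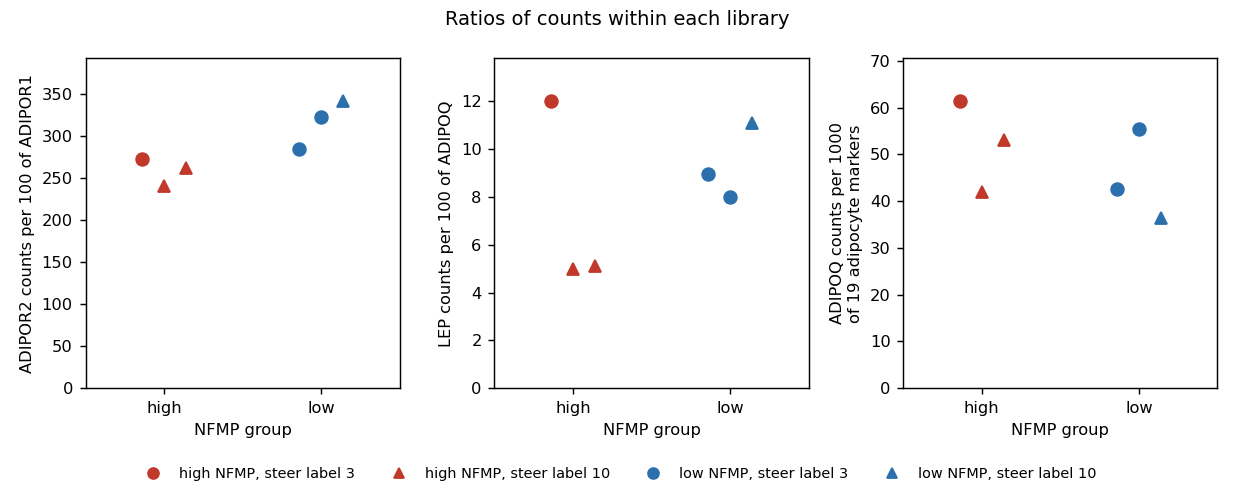
Counts of ADIPOR2 per 100 counts of ADIPOR1 (left), of LEP per 100 of ADIPOQ (middle) and of ADIPOQ per 1000 of the 19 adipocyte markers (right) in each library, with axes from 0, high-NFMP steers in red and low-NFMP steers in blue. The ADIPOR2 ratio lies between 241 and 272 among high-NFMP steers and between 284 and 341 among low-NFMP steers, while the other ratios overlap between the groups.

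CDH13, the T-cadherin that binds the large multimers of adiponectin, was counted 6462, 4317 and 5086 times among high-NFMP steers and 6309, 5872 and 4517 times among low-NFMP steers. The groups overlapped almost entirely. The means were 5482 ± 936 and 5344 ± 742 normalized counts (SD, n = 3 each), a log2 fold change of 0.04 (95% interval -0.38 to 0.46, adjusted p = 0.959 by edgeR). Endothelial cells are a known source of CDH13, and the 10 endothelial markers summed to between 93.3 and 138.6 CPM in the high-NFMP and between 92.7 and 113.8 CPM among low-NFMP steers, also with overlap and with PECAM1 at 27.8 CPM and ESAM at 18.8 CPM as the most abundant.

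C1QTNF5, which encodes a small secreted protein of the C1q family, was counted 194, 136 and 112 times among high-NFMP steers 3-8, 10-8 and 10-9 and 85, 47 and 64 times among low-NFMP steers 3-1, 3-3 and 10-16. The groups did not overlap. The means were 153.4 ± 42.2 and 63.2 ± 19 normalized counts (SD, n = 3 each), and the log2 fold change was 1.28 (standard error 0.31, 95% interval 0.62 to 1.94, adjusted p = 0.0857 by edgeR). The p and fold change threshold was passed in all 15 alternative settings, with log2 fold changes between 1.06, without steer 3-8, and 1.50, without steer 3-1. Over the steers labelled 3 the mean log2 CPM of the high-NFMP steer exceeded that of the 2 low-NFMP steers by 1.69, and over the steers labelled 10 the 2 high-NFMP steers exceeded the low-NFMP steer by 0.99. In the RefSeq gene table MFRP overlaps C1QTNF5, and MFRP had at most 1 count in any library.
C1QTNF1, a relative expressed in vessel walls and fat, was counted 84, 144 and 135 times among high-NFMP steers and 39, 90 and 109 times among low-NFMP steers. Steer 3-8 lay within the range of the low-NFMP group. The means were 126.8 ± 38.2 and 76.9 ± 36.8 normalized counts (SD, n = 3 each), with a log2 fold change of 0.72 (95% interval -0.07 to 1.52, adjusted p = 0.485 by edgeR). It passed the threshold in 1 of the 15 alternative settings, which left out steer 10-16 and gave 1.10 on the log2 scale. The log2 fold change was 0.39 without steer 3-1, 0.46 with the label number as a term and 0.48 with age as a term. C1QTNF5 and C1QTNF1 ordered the steers differently. Per 100 C1QTNF1 counts there were 231 C1QTNF5 counts in steer 3-8 and 218 in steer 3-1, against 52.2 to 94.4 in the other 4 steers.

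RBP4, the plasma carrier of retinol, which liver and adipocytes secrete, was counted 377, 231 and 220 times among high-NFMP steers and 238, 224 and 156 times among low-NFMP steers. Steer 10-9 fell within the low-NFMP range. The means were 286.5 ± 84.7 and 197.5 ± 36.1 normalized counts (SD, n = 3 each), and the log2 fold change was 0.54 (95% interval 0.00 to 1.07, adjusted p = 0.435 by edgeR). The unadjusted p by edgeR, 0.0493, was below 0.05 in 7 of the 15 alternative settings. Without steer 3-8 the log2 fold change of RBP4 was 0.27 (unadjusted p = 0.277 by edgeR). Steer 10-9, with the highest summed hepatocyte markers, had the lowest RBP4 count of the high-NFMP group, and the part of these markers in the RBP4 values was not tested.
CFD, the serine protease that starts the alternative complement pathway and was named adipsin for its origin in fat cells, was counted 52, 46 and 79 times among high-NFMP steers and 30, 42 and 42 times among low-NFMP steers. After normalization the groups were separated, with 51.1 as the lowest high-NFMP and 42.4 as the highest low-NFMP value. The means were 61.0 ± 15.8 and 36.7 ± 7.11 (SD, n = 3 each), with a log2 fold change of 0.73 (95% interval -0.03 to 1.50, adjusted p = 0.456 by edgeR). The counting error alone of a gene at these levels is 13.0% in the high-NFMP and 16.2% in the low-NFMP group, against observed coefficients of variation of 25.9% and 19.4%. MED16 overlaps CFD in the RefSeq gene table, and had 67 to 117 counts in the high-NFMP and 90 to 135 among low-NFMP steers, with a log2 fold change of -0.03.

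The steer labels begin with 3 or 10, and the sources that were used here do not give what this number stands for. Each number occurs in both groups. ADIPOR1, ADIPOR2, CDH13 and C1QTNF1, 4 of the 10 genes, separated the 3 steers labelled 3 from the 3 labelled 10, as did 14.1% of all tested genes. CDH13 averaged 6006 normalized counts in the steers labelled 3 and 4819 in those labelled 10, and C1QTNF1 68.6 and 135.2. In a fit with both terms by edgeR, the coefficient of the label number (10 over 3) was -0.37 for CDH13, 0.83 for C1QTNF1, -0.51 for ADIPOQ, -0.57 for RBP4 and -0.96 for LEP on the log2 scale. No gene of the 10 had an adjusted p below 0.05 for the number by edgeR, where 0.0133% of all tested genes did, and 4 of the 10 had an unadjusted p below 0.05, where 6.64% of all tested genes did. With the number as a term, the log2 fold change between the NFMP groups was 1.96 for LEPR, 1.35 for C1QTNF5 and 0.77 for ADIPOQ, with unadjusted p of 0.00688, 0.000943 and 0.00151 by edgeR. Within the steers labelled 3 and within those labelled 10 the high-NFMP mean of LEP was above the low-NFMP mean by 1.46 and below it (-0.54), respectively.

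In the list of 21 leptin signalling genes, all tested, IRS2 was past the p and fold change threshold as higher and SOCS3 as lower, where 2.53% and 1.36% of all tested genes were. IRS2, an adaptor that insulin and cytokine receptors share, had 698.2 ± 186 against 336.7 ± 58.6 normalized counts (SD, n = 3 each). Its log2 fold change of 1.05 (adjusted p = 0.0495 by edgeR) fell under the limit without steer 10-9 (0.85), without steer 3-3 (0.93), with the label number as a term (0.88) and with library totals alone (0.99). By the study's qPCR with further steers IRS2 was also higher with high NFMP, without statistical significance. SOCS3, the feedback inhibitor of cytokine receptors, was counted 91, 39 and 52 times among high-NFMP steers and 206, 187 and 70 times among low-NFMP steers. The groups overlapped in steers 3-8 and 10-16, and the log2 fold change was -1.23 (95% interval -2.08 to -0.38, adjusted p = 0.238 by edgeR). Without steer 3-1 its log2 fold change was -0.96, and with the label number as a term -0.79, both under the limit, and the quantile procedure lost the call on its p.
An unadjusted p below 0.05 was found for 7 of the 21, of which 6 were lower with high NFMP and 1 was higher, where 11.5% of all tested genes had one and 5.73% had one as higher. The median log2 fold change of the list was -0.21. Of the 21, 5 separated the groups as lower (JAK2, STAT3, PTPN1, PIK3CA and PIK3R1, named here after their values were seen) and 1 as higher, where 17.1% of all tested genes separated them in either direction. STAT3 was counted 360, 268 and 280 times among high-NFMP steers and 644, 599 and 506 times among low-NFMP steers, a log2 fold change of -0.83 (95% interval -1.25 to -0.42, adjusted p = 0.073 by edgeR). JAK2 had 260.8 ± 48.7 against 386.5 ± 36.4 normalized counts and PTPN1 690.9 ± 97.9 against 1051 ± 48.0 (SD, n = 3 each). These genes also serve other cytokine and growth factor receptors. The most abundant of the list were FOXO1 at 298 CPM and PIK3R1 at 157 CPM.
In the list of 22 adiponectin signalling genes, all tested, 1 was past the threshold as higher, where 2.53% of all tested genes were. This was PRKAG2, a regulatory subunit of AMP-activated protein kinase, at 1123 ± 341 against 515.9 ± 58.4 normalized counts (SD, n = 3 each, adjusted p = 0.034 by edgeR). Without steer 10-9 its log2 fold change was 0.87, and with the label number as a term 0.97, both under the limit. The list then held 0 calls, and it held 2 without steer 3-8, 3-1 or 3-3 and with age as a term. An unadjusted p below 0.05 was found for 2 of the 22, both as higher, where 5.73% of all tested genes had one as higher and 11.5% in either direction. Of the 22, 5 separated the groups as higher and 1 as lower, where 17.1% of all tested genes did in either direction. The median log2 fold change was 0.15. ACACB at 345 CPM and RACK1 at 320 CPM were the most abundant, and neither passed the threshold.

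Of the 29 other adipokines and C1QTNF genes listed, 24 were found in the files and 16 were tested. None was past the p and fold change threshold as higher, and 2 were as lower, where 1.36% of all tested genes were (2.45% without steer 3-8). These were the chemokine gene CCL2, at 47.0 ± 39.4 against 173.9 ± 128 normalized counts, and DPP4, at 20.7 ± 12.1 against 44.4 ± 21.4 (SD, n = 3 each). Both overlapped between the groups. With a steer left out in turn both stayed past the threshold without steer 3-8 or 10-16 and were lost without each of the other 4 steers. Both were also lost with age as a term and with the quantile procedure, DPP4 with the label number as a term (-0.77), and CCL2 on its p when low counts were not filtered. Without steer 3-1 the log2 fold change was -1.12 for CCL2 and -0.65 for DPP4. The CCL2 counts of 332 in steer 3-1 and 142 in steer 3-3 were the highest. The most abundant were NAMPT at 125 CPM and FBN1, which encodes the precursor of asprosin, at 91.6 CPM. The other tested C1QTNF genes, C1QTNF2, C1QTNF3, C1QTNF7 and C1QTNF9, had log2 fold changes of 1.00, 0.69, 0.29 and 0.17, none past the threshold.
In the retinol list, 15 of 17 genes were found and 8 tested, with 0 called by edgeR and 1 at an unadjusted p below 0.05, a share near that of all tested genes (11.5%). DESeq2 called 0 and limma after quantile normalization 1, and over all alternatives between 0 and 2 were called, with 2 without a filter and without steer 10-9. DHRS3 at 39.7 CPM and ALDH1A1 at 42.5 CPM were its most abundant genes. In the alternative complement list, 19 of 20 genes were found and 15 tested. Of these 1 was past the threshold as higher, C3, the central protein of complement, where 2.53% of all tested genes were. C3 was counted 22, 29 and 112 times among the high-NFMP and 11, 20 and 16 times among low-NFMP steers, with a log2 fold change of 1.88 (adjusted p = 0.213 by edgeR). Without steer 10-9 its log2 fold change was 0.86, below the limit, and the quantile procedure lost the call on its p. Steer 10-9, with 112 C3 counts, was also the steer with 39.3 CPM of hepatocyte markers, and the part of these in the C3 value was not tested. CD46 at 67.2 CPM and CD59 at 45.8 CPM were the most abundant of that list.

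For the remaining cell types, the 9 macrophage markers summed to between 49.1 and 75 CPM in the high-NFMP and between 35.8 and 64.2 CPM among low-NFMP steers, and 3 of the 9 had an unadjusted p below 0.05, all as higher, where 5.73% of all tested genes did, and 3 of the 9 separated the groups as higher, where 7.97% did, with a median log2 fold change of 0.57 for the list. Of the 9, 1 was past the threshold as higher, where 2.53% of all tested genes were. This was AIF1, at 70.8 ± 40.8 against 34.3 ± 13.0 normalized counts (SD, n = 3 each). Its call was lost without steer 3-8 (log2 fold change 0.47), without steer 3-1 (1.00), without steer 10-16 (0.83), with age as a term (0.46), with library totals alone (0.97), with limma after quantile normalization (0.86) and with the quantile procedure (0.88). Over all alternatives between 0 and 3 macrophage markers were called, with 3 without steer 3-3 and 2 without steer 10-8. The 10 fibroblast and preadipocyte markers summed to between 807 and 1009 CPM against between 666.8 and 852.6 CPM, and the 9 smooth muscle and pericyte markers to between 160.1 and 181.3 CPM against between 120.9 and 239 CPM. The most abundant were DCN at 440 CPM and COL1A1 at 137 CPM of the fibroblast list, ACTA2 at 49.8 CPM and MCAM at 47.8 CPM of the smooth muscle list, and C1QA at 12.5 CPM and CD163 at 11.5 CPM of the macrophage list. The 5 blood cell markers, led by PTPRC at 7.43 CPM and ALAS2 at 1.61 CPM, summed to between 8.54 and 12.4 CPM against between 7.69 and 11.4 CPM. No tested gene of the endothelial, fibroblast, smooth muscle, hepatocyte, blood or muscle lists was past the threshold in edgeR's test. Only 3 of the 9 hepatocyte and 2 of the 5 blood markers were tested. An unadjusted p below 0.05 was found for 1 of 10 endothelial and 1 of 10 fibroblast markers and for 0 in the other lists. Of all tested genes 11.5% had one. Over the alternatives up to 2 endothelial and up to 3 hepatocyte markers were called, the latter without steer 3-8 or 10-8. The part of these cell types in the values of C1QTNF1, CFD and LEPR was not tested.

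The genes closest in pattern to ADIPOQ, C1QTNF5 and LEPR over the 6 libraries were found by the same root mean square distance of centred log2 CPM. For ADIPOQ these were CD247, LFNG, PCED1B, MYO5C and SLC6A4, at distances between 0.06 and 0.11. For C1QTNF5 they were the long noncoding RNA gene LOC104969714, EMID1, CNNM3, RIF1 and the small nuclear RNA gene LOC112444222, at distances between 0.10 and 0.15. The genes nearest to LEPR lay farther away, at distances between 0.22 and 0.32. They were LOC104974444, FBLN7, LOC112446129, LOC112449042 and LOC112446130, of which LOC112446129 and LOC112446130 are small nuclear RNA genes.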

How the data were processed

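The authors made 3′ mRNA libraries with a Lexogen kit from LT muscle and deposited the reads counted per gene symbol, not normalized, 1 library per steer. Their methods name Tophat2 with HTSeq in one place and Bowtie2, with unique and multiple alignments, in another. The sources that were used here do not give which of them made these counts or whether strand was used, so overlapping genes can share reads. From the deposited counts (23015 rows, 22839 symbols), R 4.3.3 with edgeR 4.0.16 was used. Its default filter (minimum count 10, minimum total 15) kept 15039 rows. Repeated symbols were tested as separate rows. Libraries were normalized with TMM factors between 0.915 and 1.08, and the groups compared by the quasi-likelihood test with Benjamini-Hochberg adjustment over all tested rows. A call needed a fold change above 2 and an unadjusted p below 0.05. The biological coefficient of variation was 25.1%. The reads carry no molecular identifiers and so are not independent molecules, and Poisson intervals cover counting error only.

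The 10 genes and the lists were chosen with earlier results of these data known. Named genes were the 10, LEPROT and overlapping genes, genes of the lists past the threshold, the 2 most abundant genes of each list, and the genes nearest in pattern. JAK2, STAT3, PTPN1, PIK3CA, the other C1QTNF genes, the untested adipokines and the liver genes outside this rule (ALB, APOB and TF) were named after their values were seen. Symbols were matched to RefSeq genes of ARS-UCD2.0, and no coordinates are printed since the methods name another assembly. The alternatives were other filters, other scalings, DESeq2 1.42.0, limma 3.58.1 after quantile normalization, a quantile procedure (log2 of the count plus 1, equal-variance test per gene), a term for the label number, a term for age, and leaving out every steer in turn. The coefficient of the label number, the values within a number, the separation by library totals and the adipocyte sums with a marker left out were added after seeing the data. The scripts were tested on simulated counts.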

Additional observations from a re-analysis of the deposited data

How the results depend on the processing

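Over 15 alternative settings, 137 of the 149 refitted log2 fold changes of the 10 genes kept their direction and their side of the p and fold change threshold. C1QTNF1 passed it in 1 more (1.10, without steer 10-16), and 11 changed sign, none of them with an unadjusted p below 0.05 by edgeR. ADIPOR2 was at -0.01 without a filter, -0.05 with library totals alone, -0.09 with the label number as a term, -0.03 with age as a term, between -0.12 (without steer 3-1) and 0.29 with a steer left out, including -0.09 without steer 3-3. CDH13 was at -0.03 with library totals alone, between -0.11 (without steer 3-8) and 0.15 with a steer left out, including -0.04 without steer 10-16. LEP was at -0.23 with age as a term and between -0.51 (without steer 3-8) and 0.80 with a steer left out, so that 1 library set its direction. The number of the 10 genes called was 2 throughout, except 1 with at least 10 counts in every library (LEPR was not fitted) and 3 without steer 10-16. C1QTNF5 had an adjusted p between 0.0122 (DESeq2) and 0.459, with 0.0196 without a filter, and LEPR between 0.0605 and 0.552. ADIPOQ had an unadjusted p below 0.05 in 12 of the 15. Of all tested genes 586 were called, 969 without a filter, 364 with at least 10 counts in every library, 350 with the quantile procedure, and 630 to 744 with a steer left out. At an adjusted p below 0.05 there were 103, and 28 to 82 with a steer left out, 240 without a filter, 287 with DESeq2, 69 with library totals alone, 31 with age as a term and 0 with the quantile procedure (1465 at an unadjusted p below 0.05). LEPR at 3 counts in a library is limited by depth. The labels number no replicates across the groups. The first label number, which occurs in both, gave 554 calls as a term.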

Other observations

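Several adipokines known from other tissues were close to absent. Of the 24 other adipokine and C1QTNF genes found in the files, 8 were not tested, and none of these had more than 21 counts in a library. The tumour necrosis factor gene TNF had 5, 0 and 1 counts among high-NFMP steers 3-8, 10-8 and 10-9 and 0, 0 and 2 among low-NFMP steers 3-1, 3-3 and 10-16. The interleukin gene IL6 had 5, 3 and 0 counts against 3, 2 and 0. Resistin (RETN) was counted in 2 steers, 1 time in 3-1 and 5 times in 3-3. LCN2 had at most 2 counts in a library. AZGP1, the zinc-alpha-2-glycoprotein gene, had 13, 5 and 11 counts among high-NFMP steers and 0, 3 and 0 among low-NFMP steers, without a test.

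Of the 9 hepatocyte markers, 8 had their highest CPM in steer 10-9. The exception was APOB, with 2 counts there and 5 in steer 3-3, and TF was close to it in steer 3-8, with 44 counts against 48. The fibrinogen genes FGA and FGB had 215 and 163 counts there, against at most 25 and 14 in any other library, and albumin (ALB) had 64 against at most 20. FGA, FGB and ALB were picked once their values were known, and their groups overlapped.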
